A study of Homo sapiens with 32 samples.

Results

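Forkhead genes encode transcription factors that bind DNA through a shared winged-helix domain. The genes described here are the 41 rows of the count tables whose symbols begin with FOX followed by a subfamily letter from A to S other than P and a number, out of 28278 gene symbols, and the same 41 genes were found by Ensembl identifier among the 60199 genes of the knockdown table. Within the family, FOXA factors open closed chromatin in endoderm and other tissues, FOXC, FOXD, FOXF and FOXL1 genes mark mesenchyme, kidney stroma and neural crest, FOXE1 marks the thyroid and FOXI3 the pharyngeal ectoderm. FOXO factors are held out of the nucleus by AKT when insulin and growth factor signalling is on, FOXM1 drives genes of the G2 and M phases of the cell cycle, and FOXK, FOXJ2, FOXJ3 and FOXN2 are found in many tissues. Many developmental forkhead genes lie in CG-rich regions that Polycomb repressive complex 2 (PRC2) marks with methylated histone H3 in cells where they are silent.

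Expression was measured by RNA sequencing in Ewing sarcoma cell lines. STAG2 and STAG1 are alternative subunits of cohesin, the ring that shapes chromatin loops, and EZH2 and SUZ12 are the catalytic subunit and a core subunit of PRC2. The A673 count libraries came from 3 experiments. Experiment 1 held 2 libraries of the WT clone, which carries a doxycycline-inducible Cas9 but no edit, 1 of parental A673 (no Cas9) and 2 of STAG2 KO clones. Experiment 2 held 2 WT clone, 1 parental, 3 STAG2 KO, 3 EZH2 KO and 3 SUZ12 KO libraries, and experiment 3 held 1 WT clone, 1 parental and 3 STAG1 KO libraries. The knockouts were made in the WT clone, so the inducible Cas9 was present in all of them and absent from the parental control, and each knockout library is 1 clone. Experiment 4 compared 3 libraries of A673 transfected with siRNA against STAG2 (siSTAG2) with 3 control libraries (siC, labelled WT). In addition, 1 library each was made of SK-N-MC WT and STAG2 KO, and of A4573 WT, a line that the study describes as lacking STAG2, and A4573 with STAG2 restored (STAG2 KI), all labelled iCas9. Libraries are named here by the numbers of the deposited columns (STAG2 KO 5 and 24 in experiment 1, 2, 3 and 5 in experiment 2, STAG1 KO 1, 5 and 7), whereas the sample titles number the STAG2 KO clones 1 and 4 in experiment 1 and 2, 3 and 5 in experiment 2, so the column number 5 of experiment 1 is not the clone titled 5.

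Total counts were 15734628 to 20663679 in the 22 A673 clone libraries, 29322507 to 32261248 in the 4 libraries of the isogenic pairs, and 6852340 to 8184632 reads, recovered from the normalized values, in the 6 knockdown libraries. Of 7 Ewing sarcoma markers, 6 had at least 10 counts in every count library, and CD99 was listed at 0 throughout. The targeted transcript fell in STAG2 KO (log2 fold change -1.81, adjusted p = 0.00424, edgeR), EZH2 KO (-1.98, adjusted p = 0.000137), SUZ12 KO (-1.90, adjusted p = 0.000299) and siSTAG2 (-2.72, limma). It did not pass in STAG1 KO (-0.80, adjusted p = 0.376), where the library labelled STAG1 KO 1 held 61.9 CPM (counts scaled to library size) of STAG1 against 57.0 and 68.2 in its controls. In experiment 1, STAG2 KO 24 held 188 CPM of STAG2 and STAG2 KO 5 held 43.4, against 282 to 299 in their controls. The STAG2 KO libraries of experiment 2 held 60.3 to 69.5 CPM of STAG2. Levels below are CPM normalized by TMM, log2 fold changes come with their standard error (SE), and a gene is called where its p, adjusted over all genes tested, is under 0.05.

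Among the 41 forkhead genes, 12 had at least 10 counts in each of the 22 A673 clone libraries: FOXD3, FOXJ2, FOXJ3, FOXK1, FOXK2, FOXM1, FOXN2, FOXN3, FOXO1, FOXO3, FOXO4 and FOXO6. A further 5 (FOXI2, FOXL3, FOXN1, FOXR1 and FOXR2) had 0 counts in all of them, and 21 had at most 3 counts in every control library of experiments 1 to 3. Those 21 include FOXE1, FOXF2 and FOXI3, as well as FOXA2, FOXA3, FOXF1, FOXL2 and FOXN4. In bulk RNA, fewer cells that express a gene and less RNA per cell cannot be told apart.

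Per kilobase of merged exon, FOXM1 stood first in the 6 control libraries of experiments 1 and 2, with a median of 46.0 CPM per kb (37.3 to 54.3). It was followed by FOXK2 at 12.8 (11.3 to 14.3) and FOXJ3 at 10.5 CPM per kb (8.77 to 11.4), whose ranges touch. FOXO3 (5.95), FOXJ2 (5.68), FOXK1 (4.87) and FOXN2 (4.09 CPM per kb) came next with overlapping ranges, so their order is not set beyond the spread. FOXO6 reached 2.61 CPM per kb in A673 but 22.1 and 31.7 in SK-N-MC WT and STAG2 KO, where it was second to FOXM1 at 37.7 and 31.9. FOXO3 and FOXD4 have near-identical copies elsewhere in the genome, and FOXA1, FOXC2, FOXD1, FOXD3, FOXF2, FOXH1, FOXJ1, FOXK2, FOXM1 and FOXN3 share exons with genes on the opposite strand. Their counts are uncertain to that extent, since the library kit does not keep strand.

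**Figure D1:**
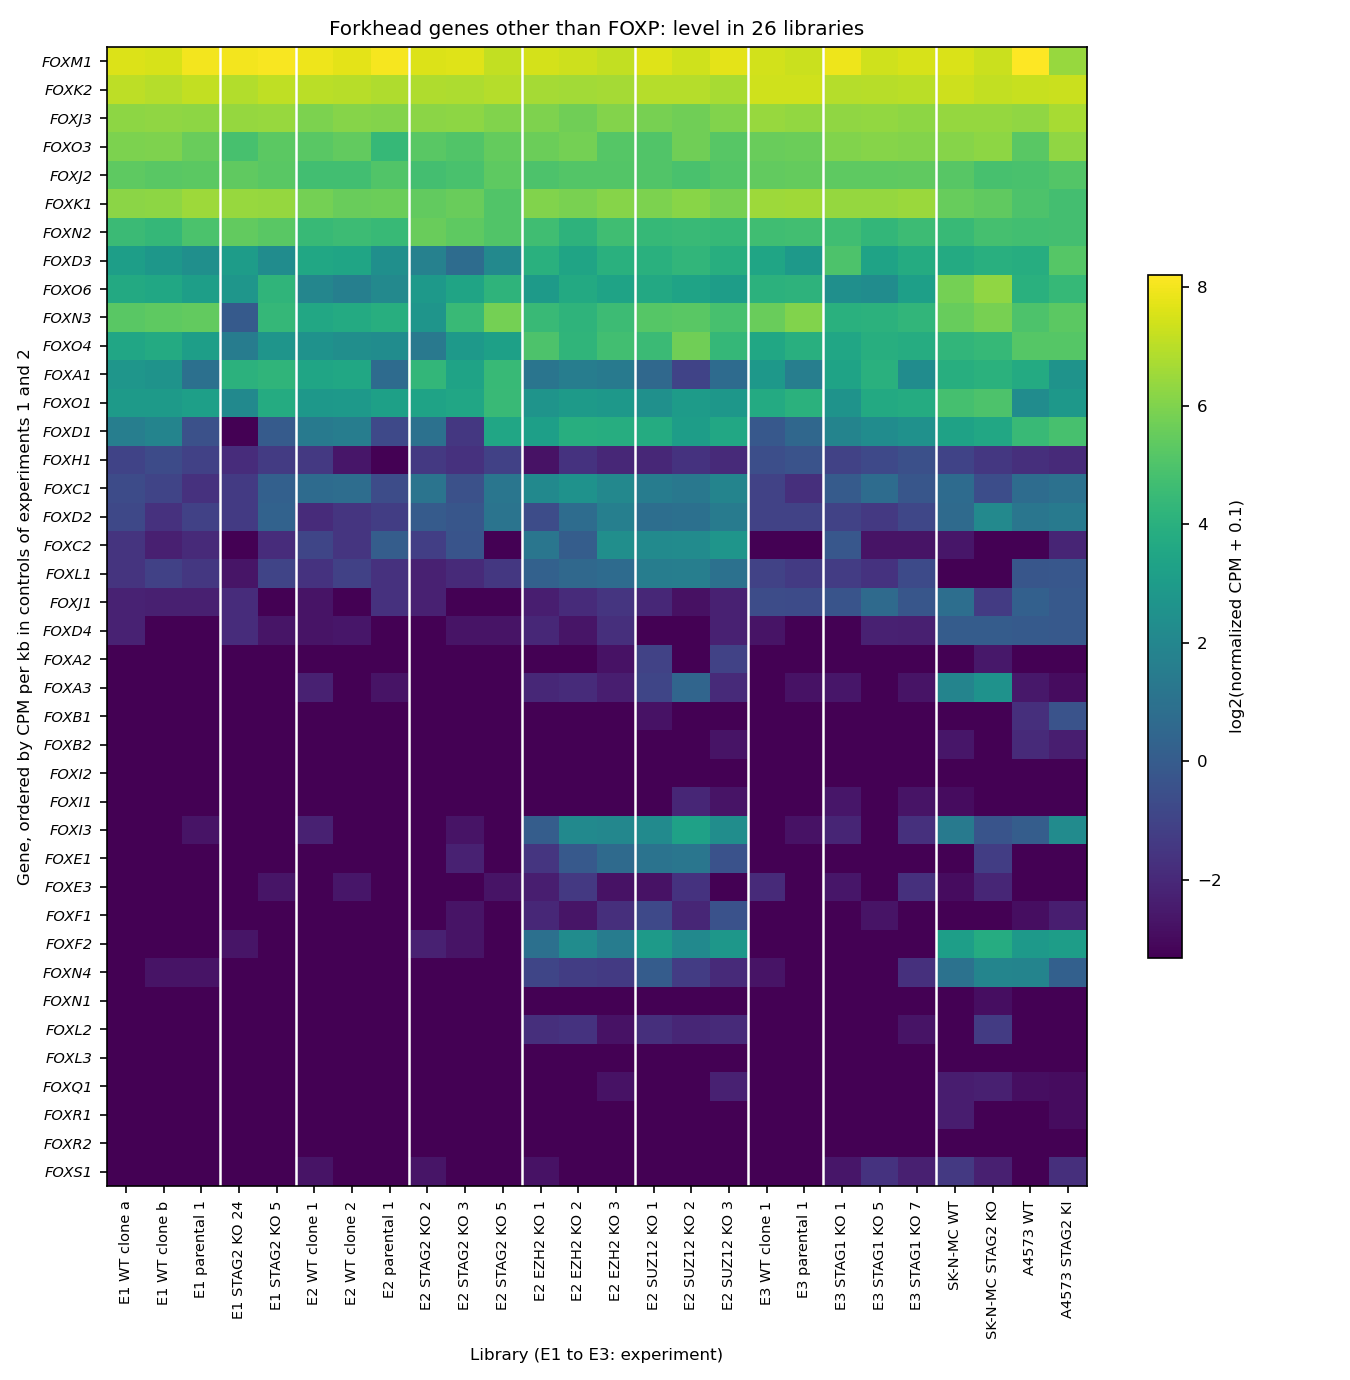
Heat map of log2(normalized CPM + 0.1) for the forkhead genes reported here (rows, ordered by CPM per kb in the control libraries of experiments 1 and 2) in the 22 A673 clone libraries and the 4 libraries of the isogenic pairs (columns). The upper rows are filled in every library, and FOXF2, FOXI3 and FOXE1 are near the floor in A673 controls and raised in the 6 EZH2 KO and SUZ12 KO libraries.

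Promoter sequences were available for 30 of the 41 genes in RefSeq (GRCh38.p14), as windows of 300 bases around the transcript start. Forkhead windows were rich in CG dinucleotides, with a median of 32 per window over 35 windows against 14 over all 35116 windows. The sequences of 5 genes on which the results turn are shown, with each CG in capitals: FOXF2 (chr6:1389326-1389625, plus strand, 26 CG), FOXE1 (chr9:97852976-97853275, plus strand, 32 CG) and FOXI3 (chr2:88452644-88452943, minus strand, 39 CG), which rose from the floor in PRC2 KO clones; FOXO4 (chrX:71095601-71095900, plus strand, 25 CG), which rose there and fell in the knockdown; and FOXA1 (chr14:37595200-37595499, minus strand, 34 CG), which was lower.
FOXF2: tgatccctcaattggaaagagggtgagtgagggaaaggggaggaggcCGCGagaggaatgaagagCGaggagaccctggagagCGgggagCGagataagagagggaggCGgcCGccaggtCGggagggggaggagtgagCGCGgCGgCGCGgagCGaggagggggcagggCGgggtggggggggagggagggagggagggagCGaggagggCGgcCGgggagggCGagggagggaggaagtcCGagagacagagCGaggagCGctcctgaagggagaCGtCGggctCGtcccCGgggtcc
FOXE1: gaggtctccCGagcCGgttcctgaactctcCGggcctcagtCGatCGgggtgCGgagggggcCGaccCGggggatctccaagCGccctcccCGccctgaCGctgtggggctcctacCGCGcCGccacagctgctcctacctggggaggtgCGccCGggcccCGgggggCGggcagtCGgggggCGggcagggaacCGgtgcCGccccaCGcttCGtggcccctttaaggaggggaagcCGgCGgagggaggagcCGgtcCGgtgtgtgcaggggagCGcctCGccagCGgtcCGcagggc
FOXI3: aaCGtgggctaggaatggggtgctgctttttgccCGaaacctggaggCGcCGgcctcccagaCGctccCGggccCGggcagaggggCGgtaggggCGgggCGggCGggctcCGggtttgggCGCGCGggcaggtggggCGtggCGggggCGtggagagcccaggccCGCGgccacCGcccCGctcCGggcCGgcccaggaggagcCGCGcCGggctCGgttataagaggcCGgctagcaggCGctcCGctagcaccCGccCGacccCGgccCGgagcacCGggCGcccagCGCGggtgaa
FOXO4: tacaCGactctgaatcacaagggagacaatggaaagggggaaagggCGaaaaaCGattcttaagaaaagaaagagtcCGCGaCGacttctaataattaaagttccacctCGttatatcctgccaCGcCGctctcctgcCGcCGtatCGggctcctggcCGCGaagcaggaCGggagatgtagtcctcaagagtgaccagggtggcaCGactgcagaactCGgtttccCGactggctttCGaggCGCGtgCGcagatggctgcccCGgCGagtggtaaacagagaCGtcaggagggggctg
FOXA1: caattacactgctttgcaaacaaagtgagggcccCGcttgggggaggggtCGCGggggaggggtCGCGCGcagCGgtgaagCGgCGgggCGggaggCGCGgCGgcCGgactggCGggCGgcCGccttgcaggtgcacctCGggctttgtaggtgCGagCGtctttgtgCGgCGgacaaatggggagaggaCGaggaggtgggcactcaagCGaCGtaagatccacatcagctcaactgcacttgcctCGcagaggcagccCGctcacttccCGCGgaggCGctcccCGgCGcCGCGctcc

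Each of the 5 windows held more CG than most windows in the table, from 68.0% of windows having fewer for FOXO4 to 91.3% for FOXI3. The forkhead recognition sequence TGTTTAC, searched on both strands, was found in 1 of 35 forkhead windows, that of FOXO4, and in 3.42% of all windows. The repeat GGAAGGAA, the kind of sequence bound by EWS::FLI1, was found in 1 of 35, that of FOXD1, and in 3.67% of all windows. These letters are a description of the windows only.

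Experiment 2 compared the RNA of these genes in A673 clones without a PRC2 subunit and in controls. Whether PRC2 acts on the genes directly was not tested. FOXF2, FOXI3 and FOXE1 went from at most 2 counts in each control library to levels well over the floor in EZH2 KO and SUZ12 KO clones, and FOXL1, FOXD2, FOXO4 and FOXO6 rose in both. FOXM1 fell in EZH2 KO and FOXA1 fell in SUZ12 KO. EZH2 KO and SUZ12 KO were compared with the same 3 control libraries, so their values stand side by side and are not independent.

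FOXF2 (chr6:1389576-1395603), a gene of gut and limb mesenchyme, had 0 counts in WT clone 1, WT clone 2 and parental A673. It had 37, 87 and 57 counts in EZH2 KO 1, 2 and 3, and 159, 97 and 123 in SUZ12 KO 1, 2 and 3. All 6 knockout libraries lay over all 3 controls. Set against a floor of 3 counts per control library, mean CPM was at least 18.3-fold higher in EZH2 KO and at least 36.7-fold higher in SUZ12 KO (adjusted p = 0.000628 and 0.000224, edgeR's quasi-likelihood test).

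FOXI3 (chr2:88446787-88452693) had 2, 0 and 0 counts in WT clone 1, WT clone 2 and parental cells. It had 20, 79 and 83 counts in EZH2 KO clones and 93, 213 and 90 in SUZ12 KO clones, so EZH2 KO 1 and SUZ12 KO 2 were the low and high clones. The rise was at least 18.3-fold and at least 37.2-fold (adjusted p = 0.00184 and 0.000592, edgeR). FOXE1 (chr9:97853226-97856717), with 0 counts in all controls, was lower and more uneven, at 5, 15 and 31 counts in EZH2 KO and 41, 49 and 12 in SUZ12 KO. Its rise was at least 5.02-fold and at least 9.49-fold (adjusted p = 0.0123 and 0.0042, edgeR).

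On chromosome 16, FOXF1, FOXC2 and FOXL1 lie in a row, with gaps of 51.4 kb and 6.6 kb. FOXL1 (chr16:86576368-86583478), a gene of the mesenchyme under gut epithelium, had 4, 6 and 4 counts in the controls, 23, 25 and 32 in EZH2 KO and 59, 65 and 35 in SUZ12 KO. It rose in both, with log2 fold changes of 2.33 (SE 0.438, adjusted p = 0.00438) and 3.26 (SE 0.441, adjusted p = 0.000554, edgeR). FOXC2 (chr16:86566829-86569728), which directs lymphatic and mesenchymal development, had 8, 4 and 18 counts in WT clone 1, WT clone 2 and parental cells. It had 46, 17 and 107 counts in EZH2 KO and 93, 104 and 119 in SUZ12 KO. EZH2 KO 2 thus overlapped the parental control, and FOXC2 passed in SUZ12 KO (3.24, SE 0.874, adjusted p = 0.0217) but not in EZH2 KO (2.32, SE 0.856, adjusted p = 0.0906, edgeR). The FOXC2 call in SUZ12 KO was lost without WT clone 1 or without WT clone 2 (adjusted p up to 0.0928). FOXF1 stayed at 0 counts in the controls, 1 to 4 in EZH2 KO and 3 to 12 in SUZ12 KO, too low to be tested.

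FENDRR, the noncoding gene between IRF8 and FOXF1, had 0 counts in every library of experiment 2. IRF8, 587.9 kb from FOXF1, had 0 counts in the 3 controls, 42 to 98 in EZH2 KO and 78 to 168 in SUZ12 KO, and was called in both. MTHFSD, which lies between FOXF1 and FOXC2, was tested and not called in either. On chromosome 6, FOXQ1, FOXF2 and FOXC1 lie in a row, with gaps of 74.8 kb and 214.3 kb. FOXQ1 stayed at or under 2 counts in every library of experiment 2. FOXC1 (chr6:1609915-1613897), a mesenchymal and neural crest factor, had 28, 27 and 10 counts in WT clone 1, WT clone 2 and parental cells against 91, 103 and 86 in EZH2 KO and 57, 52 and 67 in SUZ12 KO. All 6 knockout libraries were over the controls, and FOXC1 was called in EZH2 KO (1.95, SE 0.517, adjusted p = 0.0258) but not in SUZ12 KO (1.24, SE 0.512, adjusted p = 0.110, edgeR). The FOXC1 call in EZH2 KO was lost when any of WT clone 1, WT clone 2, parental, EZH2 KO 1 or EZH2 KO 2 was left out (log2 1.57 to 2.19, adjusted p up to 0.0861). GMDS, 9.9 kb from FOXC1, rose in EZH2 KO (0.91, adjusted p = 0.00842), SUZ12 KO (0.98, adjusted p = 0.00412) and STAG2 KO (0.99, adjusted p = 0.00323, edgeR), whereas FOXC1 was called only in the first of these.

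**Figure D2:**
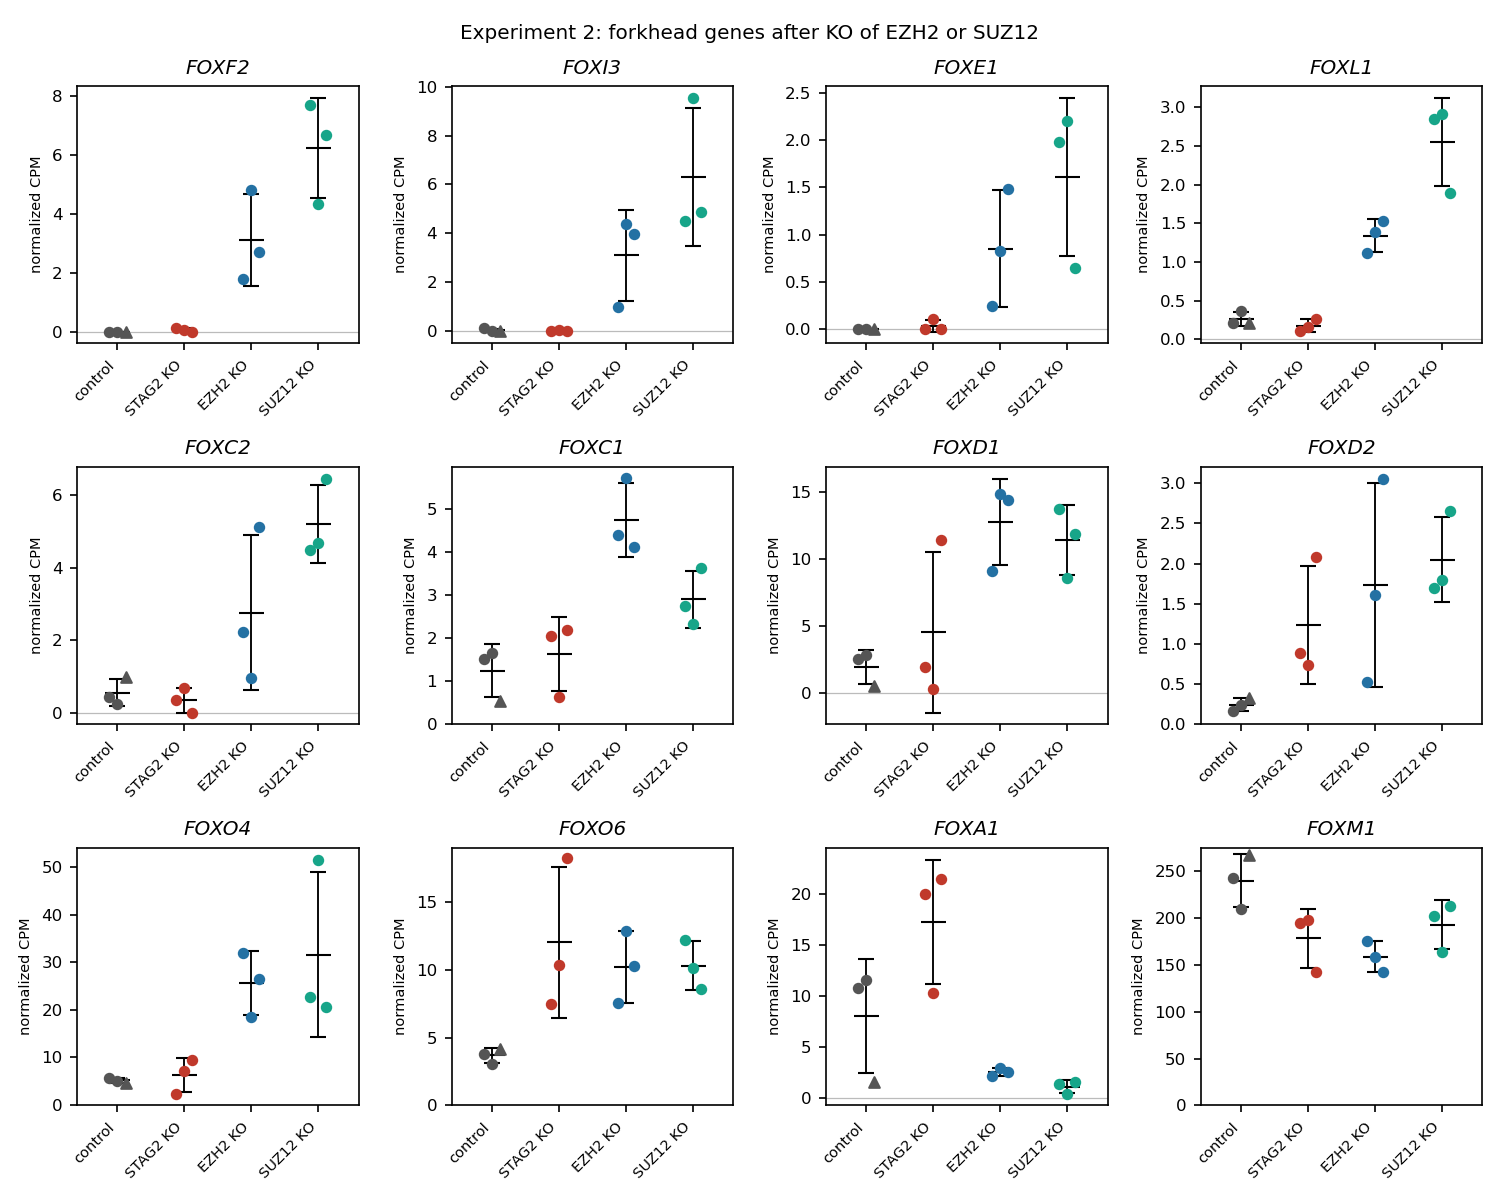
Normalized CPM of 12 forkhead genes in the 12 libraries of experiment 2, by group (control, STAG2 KO, EZH2 KO, SUZ12 KO). Points are libraries, triangles are parental cells, and bars show the mean with its SD. FOXF2, FOXI3 and FOXE1 sit at or near 0 in control and STAG2 KO libraries and over it in all 6 EZH2 KO and SUZ12 KO libraries, while FOXA1 is lowest in SUZ12 KO.

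Among the FOXD genes, FOXD2 (chr1:47438044-47440691), known from kidney and paraxial mesoderm, had 3, 4 and 6 counts in the controls, 11, 29 and 64 in EZH2 KO and 35, 40 and 49 in SUZ12 KO. It rose in both (2.81, SE 0.680, adjusted p = 0.0170, and 3.05, SE 0.682, adjusted p = 0.00850, edgeR). The FOXD2 call in EZH2 KO was lost without WT clone 1, WT clone 2 or EZH2 KO 3 (2.11 to 2.79, adjusted p up to 0.0825, edgeR). FOXD1 (chr5:73444827-73448777), a kidney stroma factor, had 46, 46 and 9 counts in WT clone 1, WT clone 2 and parental cells, 188, 268 and 302 in EZH2 KO and 284, 191 and 219 in SUZ12 KO. Although no knockout library overlapped a control, FOXD1 was not called (2.74, SE 0.962, adjusted p = 0.0773, and 2.57, SE 0.957, adjusted p = 0.0790). The fit shares its spread with the STAG2 KO libraries, where FOXD1 ranged from 5 to 214 counts, and without STAG2 KO 5 the adjusted p was 0.00847 in EZH2 KO and 0.00896 in SUZ12 KO. Without STAG2 KO 3 it was 0.0244 and 0.0239. FOXD3 was not called in either.

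The FOXO genes FOXO4 and FOXO6 rose in both PRC2 knockouts. FOXO4 (chrX:71095851-71103532) was at 5.72, 5.04 and 4.73 CPM in WT clone 1, WT clone 2 and parental cells, 32.0, 18.5 and 26.4 in EZH2 KO and 22.8, 51.5 and 20.5 in SUZ12 KO. The groups did not overlap, and the log2 fold changes were 2.33 (SE 0.479, adjusted p = 0.00731) and 2.63 (SE 0.483, adjusted p = 0.00283, edgeR). FOXO6 (chr1:41361922-41383590), a FOXO factor best known from brain, was at 3.81, 3.08 and 4.19 CPM in controls, 7.58, 12.9 and 10.3 in EZH2 KO and 12.2, 10.2 and 8.57 in SUZ12 KO. It rose 2.80-fold (adjusted p = 0.0142) and 2.83-fold (adjusted p = 0.0103, edgeR; SE 0.347 on the log2 scale in both). The FOXO6 call in EZH2 KO was lost without WT clone 1, WT clone 2 or EZH2 KO 2 (adjusted p up to 0.0735), and in SUZ12 KO without WT clone 2 (adjusted p = 0.0544). FOXO1 and FOXO3 were tested and not called in either knockout. FOXN3, a checkpoint regulator, was at 11.8, 13.2 and 14.7 CPM in controls, 22.4, 17.9 and 24.1 in EZH2 KO and 36.0, 38.6 and 28.9 in SUZ12 KO, without overlap. It was past 2-fold in SUZ12 KO but not called (1.41, SE 0.533, adjusted p = 0.0847, edgeR), and in the fit of the SUZ12 KO and control libraries alone the adjusted p was 0.000382.

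FOXA1 and FOXM1 went the other way. FOXA1 (chr14:37589552-37596059) was at 10.8, 11.6 and 1.56 CPM in WT clone 1, WT clone 2 and parental cells, 2.13, 2.88 and 2.58 in EZH2 KO and 1.40, 0.404 and 1.52 in SUZ12 KO. The parental library lay near or within the knockout range, and both WT clone libraries lay over it. FOXA1 fell in SUZ12 KO (-2.84, SE 0.685, adjusted p = 0.0127) and was not called in EZH2 KO (-1.64, SE 0.645, adjusted p = 0.110, edgeR). Against the WT clone alone both passed (-3.34, adjusted p = 0.00245, and -2.15, adjusted p = 0.0192), and the SUZ12 KO call was lost without SUZ12 KO 2 (-2.43, adjusted p = 0.0506).

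FOXM1 (chr12:2857680-2877174) was at 243, 210 and 267 CPM in controls, 175, 159 and 142 in EZH2 KO and 202, 164 and 213 in SUZ12 KO. It fell by 0.58 on the log2 scale in EZH2 KO (SE 0.161, adjusted p = 0.0314, edgeR), where the groups did not overlap, and the value in SUZ12 KO was -0.30, with 1 library among the controls. The EZH2 KO call for FOXM1 was lost without WT clone 1, parental, EZH2 KO 2 or EZH2 KO 3 (-0.60 to -0.51, adjusted p up to 0.0995, edgeR).

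In all, 22 of the 41 genes passed the filter on low counts in experiment 2. In EZH2 KO, 10 of the 22 were called, 9 higher and 1 lower, where 15.7% of the 15130 genes tested were called, 12% higher and 3.69% lower. In SUZ12 KO it was also 10 of 22, 9 higher and 1 lower, where 20.6% of genes were called, 14.7% higher and 5.87% lower. FOXE1, FOXF2, FOXI3, FOXL1 and FOXC2 passed the filter only through their PRC2 knockout libraries, so these counts describe the genes and support nothing on the family. The other 19 genes were too low to be tested, among them FOXN4 with 0 counts in controls, 6 to 9 in EZH2 KO and 3 to 19 in SUZ12 KO, and FOXA3 with up to 28 in SUZ12 KO.

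Summed endothelial markers lay over the control range in both PRC2 knockouts. Summed blood markers did so in EZH2 KO only, and summed epithelial markers overlapped the control range in both knockouts. The summed level of the endothelial markers PECAM1, CDH5 and KDR was 2.44 to 3.82 CPM in EZH2 KO and 3.09 to 6.37 in SUZ12 KO, against 0.786 to 2.15 in the control libraries of experiments 1 to 3. The 4 blood markers summed to 7.43 to 8.74 CPM in EZH2 KO and 2.20 to 4.88 in SUZ12 KO against 2.31 to 5.27 in controls, with CD3E at no more than 1 count in any A673 library. The 3 epithelial markers summed to 0.145 to 0.444 CPM in EZH2 KO and 0.580 to 2.69 in SUZ12 KO against 0.0537 to 0.867 in controls. Their part in the forkhead values was not tested.

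A direct test of EZH2 KO against SUZ12 KO, which uses no control library, called 0 of 22 genes by edgeR and 0 by DESeq2, where 0.00661% of all genes were called. At an unadjusted p under 0.05 there were 2, among them FOXL1, lower in EZH2 KO (-0.93, adjusted p = 0.999, edgeR). The 2 knockouts were also compared, as a mean, with the 3 STAG2 KO clones of the same experiment. Of 22 genes, 12 were called, 9 higher in PRC2 KO and 3 lower, where 29.7% of all genes were called, 15.9% higher and 13.8% lower. FOXE1, FOXF2, FOXI3, FOXL1 and FOXC2 passed the filter only through their PRC2 knockout libraries, so these counts too support nothing on the family. FOXF2, FOXI3 and FOXE1 had at most 2 counts in any STAG2 KO library of experiment 2 and were at least 28.9-fold, 29.1-fold and 7.60-fold higher in PRC2 KO. FOXL1 (3.34, adjusted p = 0.000251), FOXC2 (3.47, adjusted p = 0.0102) and FOXO4 (2.19, adjusted p = 0.00346) were higher too.

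FOXD3, a neural crest factor, had 58, 30 and 79 counts in STAG2 KO 2, 3 and 5 against 326, 188 and 330 in EZH2 KO and 327, 422 and 278 in SUZ12 KO. It was higher in PRC2 KO than in STAG2 KO (2.36, adjusted p = 0.000759, edgeR), with its controls between them at 215, 176 and 99 counts. FOXK1 was higher in PRC2 KO by a smaller step (0.64, adjusted p = 0.00380). FOXA1 (-3.35, adjusted p = 0.000912), FOXO1 (-1.08, adjusted p = 0.0100) and FOXN2 (-0.85, adjusted p = 0.00147, edgeR) were lower in PRC2 KO than in STAG2 KO. All 12 calls held when any 1 library was left out. FOXD1 joined them without STAG2 KO 5 (3.51, adjusted p = 0.00355).

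STAG2 KO against STAG2-proficient A673, fitted over both experiments with a term for each, called 1 of the 15 forkhead genes tested, FOXN2, where 12.4% of the 13574 genes tested were called, 6.67% higher and 5.76% lower. That share was 29.6% without STAG2 KO 5 of experiment 2 and 7.82% without WT clone 1 of experiment 2. FOXN2 (chr2:48314637-48379295) is a forkhead factor found in many tissues. It was at 22.9, 20.6 and 30.7 CPM in WT clone a, WT clone b and parental cells of experiment 1, and 37.6 and 43.6 in STAG2 KO 5 and 24. In experiment 2 it was at 21.6, 23.8 and 21.9 CPM in WT clone 1, WT clone 2 and parental cells and 47.4, 40.5 and 33.8 in STAG2 KO 2, 3 and 5. All 5 knockout libraries lay over all 6 controls. The log2 fold change was 0.78 (SE 0.132, adjusted p = 0.00349, edgeR), and it stayed called whichever library was left out. FOXN2 missed the threshold in experiment 1 taken alone (0.68, adjusted p = 0.0541) and passed in experiment 2 (0.84, adjusted p = 0.0397). In EZH2 KO and SUZ12 KO, FOXN2 was at 17.5 to 25.6 and 21.1 to 22.1 CPM, within or close to the control range.

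FOXA1 and FOXO6 were more than 2-fold higher in the fit for STAG2 KO without passing the test. With the WT clone as the only control both were under 2-fold. Their log2 fold changes were then 0.98 (adjusted p = 0.0568) and 0.95 (adjusted p = 0.304, edgeR). FOXA1 was at 6.65, 6.03 and 1.82 CPM in WT clone a, WT clone b and parental cells of experiment 1 against 18.4 and 16.9 in STAG2 KO 5 and 24, and in experiment 2 it had 360, 194 and 405 counts in STAG2 KO 2, 3 and 5 against 199, 189 and 29 in WT clone 1, WT clone 2 and parental cells, so that STAG2 KO 3 overlapped the WT clone. Its log2 fold change was 1.43 (SE 0.484, adjusted p = 0.0798, edgeR), with 1.83 in experiment 1 taken alone (adjusted p = 0.0475) and 1.10 in experiment 2 (adjusted p = 0.357). Parental cells had the lowest FOXA1 of the controls in each experiment. FOXO6 was at 12.9, 11.4 and 8.83 CPM in controls of experiment 1 and 18.4 and 6.46 in STAG2 KO 5 and 24, so the clones lay on either side of the controls. In experiment 2 all of its STAG2 KO libraries, at 7.51, 10.4 and 18.3 CPM, were over the controls at 3.81, 3.08 and 4.19. The pooled value for FOXO6 was 1.03 (SE 0.403, adjusted p = 0.127), and without STAG2 KO 24 it was 1.39 (adjusted p = 0.0184).

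Other forkhead genes spread widely among the STAG2 KO clones. FOXN3 was at 20.6 and 0.865 CPM in STAG2 KO 5 and 24 of experiment 1 and at 6.35, 22.7 and 55.4 in STAG2 KO 2, 3 and 5 of experiment 2. Its controls were at 38.3 to 43.1 CPM in experiment 1, 11.8 to 14.7 in experiment 2 and 46.9 to 64.1 in experiment 3, so control levels also differed between experiments. FOXD1 was at 0.888 and 0 CPM in the first 2 of these clones and 1.89, 0.265 and 11.4 in the last 3. FOXO4, which rose in PRC2 KO, was at 6.27 and 2.77 CPM in STAG2 KO 5 and 24 under controls of 8.62 to 13.3, and at 2.39, 7.10 and 9.42 in experiment 2 around controls of 4.73 to 5.72.

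**Figure D3:**
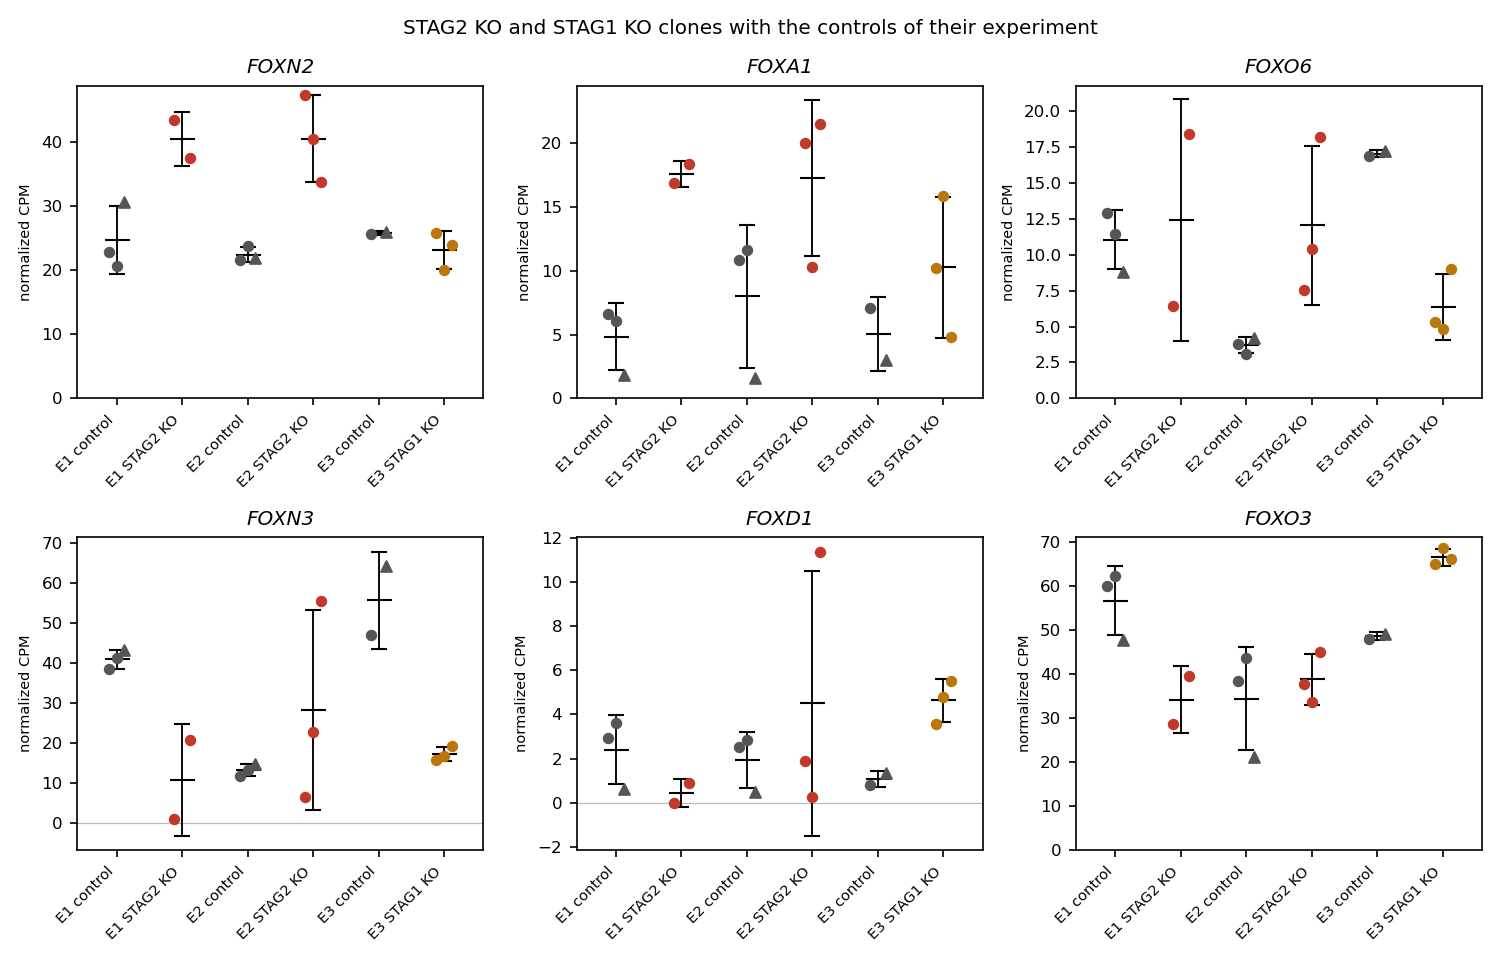
Normalized CPM of 6 forkhead genes in control and cohesin knockout libraries of experiments 1 to 3 (STAG2 KO in experiments 1 and 2, STAG1 KO in experiment 3). Points are libraries, triangles are parental cells, and bars show the mean with its SD. FOXN2 is higher in all 5 STAG2 KO libraries than in their controls and not in STAG1 KO, and FOXN3 is lower in the STAG1 KO libraries, at 15.7 to 19.2 CPM, than in their controls.

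STAG1 KO in experiment 3 called 4 of 17 genes tested, 2 higher and 2 lower, where 5.27% of genes were called, 2.77% higher and 2.5% lower. FOXN3 (chr14:89124871-89619149) was at 46.9 and 64.1 CPM in WT clone and parental cells and at 15.7, 16.7 and 19.2 in STAG1 KO 1, 5 and 7. It fell by 1.71 on the log2 scale (SE 0.171, adjusted p = 0.0181, edgeR), with no overlap. Its level in STAG1 KO was just over that of the controls of experiment 2, at 11.8 to 14.7 CPM. FOXD1, at 0.806 and 1.34 CPM in controls and 3.58, 4.81 and 5.53 in STAG1 KO, rose by 2.09 (SE 0.374, adjusted p = 0.0385). FOXK2 (chr17:82519713-82644662), which represses autophagy genes, was at 166 and 163 CPM in controls and 121, 124 and 129 in STAG1 KO. It fell by 0.42 on the log2 scale (SE 0.0793, adjusted p = 0.0440). FOXO3 (chr6:108559835-108684774) was at 47.9 and 49.2 CPM in controls and 65.0, 68.7 and 66.1 in STAG1 KO, and rose by 0.44 (SE 0.0852, adjusted p = 0.0456, edgeR).

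With WT clone or parental left out, 1 control remained and the fit called 0 of all genes tested, so the loss of these 4 calls there says nothing on the genes themselves. Their log2 fold changes were then -1.91 and -1.47 for FOXN3, 1.78 and 2.50 for FOXD1, -0.40 and -0.43 for FOXK2, and 0.42 and 0.45 for FOXO3. Leaving out STAG1 KO 5 or STAG1 KO 7 ended the calls of FOXD1, FOXK2 and FOXO3 (adjusted p 0.0744 to 0.107), while calls over all genes fell from 757 to 264 and 326. All 4 held without the library labelled STAG1 KO 1. FOXO6 was at 16.9 and 17.2 CPM in controls and 5.31, 4.81 and 8.98 in STAG1 KO, and was just short of the threshold (-1.43, SE 0.298, adjusted p = 0.0513), passing without STAG1 KO 7 (-1.78, adjusted p = 0.0383), with no filter on low counts (adjusted p = 0.0297) and by DESeq2 (-1.42, adjusted p = 0.000756). FOXC1, at 7 and 4 counts in WT clone and parental cells and 14, 29 and 15 in STAG1 KO, was not called (1.90, SE 0.573, adjusted p = 0.110). FOXA1, at 132 and 62 counts against 160, 290 and 94, was not called either (1.01, SE 0.588, adjusted p = 0.336). Endothelial markers summed to 2.29 to 7.29 CPM and blood markers to 6.59 to 10.2 CPM in STAG1 KO, over their control ranges given above, and their part in these values was not tested.

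A further fit asked whether a forkhead gene responded differently to loss of STAG2 and of STAG1, each against its own controls. Of 19 genes tested, 2 were called, FOXN2 and FOXO6, both more positive under STAG2 KO, where 6.11% of genes were called, 2.36% in that direction and 3.75% in the other. FOXN2 differed by 0.91 (SE 0.222, adjusted p = 0.0261), higher under STAG2 KO, and in STAG1 KO 1, 5 and 7 it had 403, 366 and 472 counts against 477 and 545 in WT clone and parental cells. FOXO6 differed by 2.41 (SE 0.629, adjusted p = 0.0362, edgeR). The FOXN2 difference was lost without STAG1 KO 5 or STAG1 KO 7 of experiment 3 (0.81 and 0.92, adjusted p up to 0.0789, edgeR). It was also lost without WT clone or parental of experiment 3 (0.91 and 0.90), where 1 control remained. The FOXO6 difference was lost without any of 9 libraries (2.24 to 2.42). In experiments 1 and 2 these were STAG2 KO 5 of experiment 1, and the 3 controls and STAG2 KO 3 of experiment 2. In experiment 3 they were both controls, STAG1 KO 1 and STAG1 KO 5. Adjusted p was up to 0.099 (edgeR) in the fits that kept both controls of experiment 3.

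**Figure D4:**
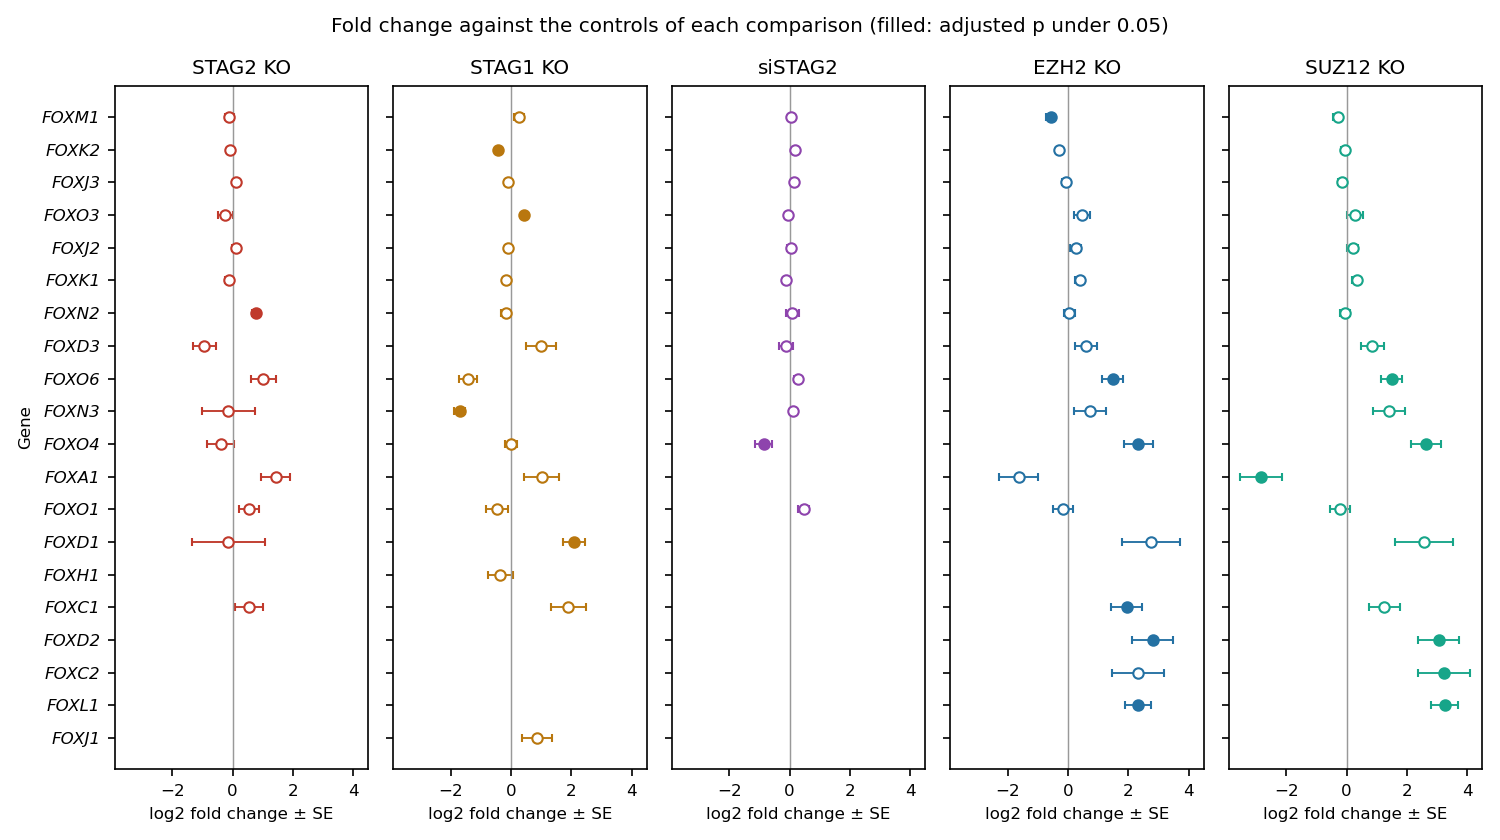
Log2 fold change with its SE for the forkhead genes tested in 5 comparisons with controls (EZH2 KO, SUZ12 KO, STAG2 KO, STAG1 KO, siSTAG2). Filled points passed at an adjusted p under 0.05, and FOXE1, FOXF2 and FOXI3 are among those left out because their controls are at the floor. FOXL1, FOXD2, FOXO4 and FOXO6 lie over 0 in both PRC2 knockouts, and FOXN2 is the filled point in STAG2 KO.

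Transient knockdown of STAG2, in experiment 4, called 1 of 12 genes tested, FOXO4, which fell, where 20.5% of the 12060 genes tested were called, 9.54% higher and 11% lower. FOXO4 was at 37.2, 28.5 and 27.1 normalized counts in siC 1, 2 and 3 and 17.8, 21.3 and 11.6 in siSTAG2 1, 2 and 3, which stand for 39, 29, 26, 16, 23 and 12 reads. The groups did not overlap. The fold change, on the log2(value + 1) scale, was -0.86 (SE 0.279, adjusted p = 0.0282, limma), and it was lost without siC 1 (-0.73, adjusted p = 0.136) or without siSTAG2 3 (-0.63, adjusted p = 0.148). FOXO1 was at 45.7, 49.2 and 47.9 normalized counts in siC and 52.1, 77.0 and 73.4 in siSTAG2, without overlap, and was not called (0.47, SE 0.183, adjusted p = 0.067). FOXN2, called in the STAG2 KO clones, was at 33.4, 35.4 and 53.1 normalized counts in siC and 38.8, 38.9 and 50.2 in siSTAG2, a log2 difference of 0.09. FOXN3 and FOXM1 ranged over 692 to 811 and 1518 to 1722 normalized counts in siC and over 720 to 880 and 1545 to 1764 in siSTAG2, and each pair of ranges overlapped.

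In SK-N-MC and A4573, with 1 library for each condition, there is no replicate check and no test, and intervals cover counting error only. Blood markers summed to 3.26 to 61.4 CPM over these libraries, with PTPRC at 0 to 1776 counts. Epithelial markers summed to 0.554 to 9.93 CPM, with EPCAM at 17 to 286 counts, and endothelial markers to 0.160 to 3.54 CPM. The part of these markers in the forkhead values was not tested. STAG2 itself was at 186 CPM in SK-N-MC STAG2 KO against 294 in WT, and at 33.5 CPM in A4573 WT against 87.2 in STAG2 KI. Of 25 forkhead genes compared in SK-N-MC, 6 differed more than 2-fold between the library without and the library with STAG2, where 21.5% of all genes did. In A4573 it was 7 of 24, where 22% did. FOXI3 was the only forkhead gene past 2-fold in both pairs. The share of all genes past 2-fold in both was not computed, so this overlap is a description only. FOXI3 had 21 counts in SK-N-MC STAG2 KO against 83 in WT (log2 ratio -1.77, exact 95% counting interval -2.63 to -1.16). In A4573 it had 29 in WT against 144 in STAG2 KI (-2.21, -2.91 to -1.70), so it was lower in both libraries without STAG2. In A673 it had at most 2 counts in any control and at most 1 in STAG2 KO clones of experiment 2.

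In A4573, FOXM1 had 9060 counts without STAG2 and 2666 with STAG2 restored (1.79, 1.73 to 1.86), whereas in SK-N-MC it had 4739 without and 6086 with STAG2 (-0.24). FOXA1 had 399 against 185 counts (1.13, 0.88 to 1.40) in A4573 and 490 against 495 in SK-N-MC. FOXN4, a retinal progenitor factor, had 110 against 33 counts (1.71, 1.19 to 2.37) in A4573 and 111 against 64 (0.89) in SK-N-MC, so it was higher without STAG2 in both. FOXD3 had 441 against 1117 counts (-1.31, -1.47 to -1.15) and FOXO3 1174 against 2456 (-1.03, -1.14 to -0.94) in A4573, both lower without STAG2, with SK-N-MC at log2 ratios of 0.25 and 0.15. FOXB1, at 6 against 21 counts, was the remaining gene in A4573.

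In SK-N-MC, FOXD2 had 125 counts without and 48 with STAG2 (1.46, 1.01 to 2.01). FOXJ1, the master factor of motile cilia, had 9 against 55 (-2.27, -3.70 to -1.47) and FOXC1 17 against 51 (-1.37, -2.35 to -0.65). FOXE1 had 10 counts without STAG2 and 0 with it, and FOXS1 had 3 against 9. Some genes that were at the floor in A673 controls were present in these lines: FOXF2 at 416 and 285 counts in SK-N-MC without and with STAG2 and 227 and 264 in A4573, and FOXI3 as above. FOXL1 had 0 counts in SK-N-MC and 23 and 24 in A4573. FOXN2 had log2 ratios of 0.37 (0.22 to 0.51) in SK-N-MC and -0.05 (-0.19 to 0.09) in A4573, and FOXO4 of 0.14 and -0.01.

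**Figure D5:**
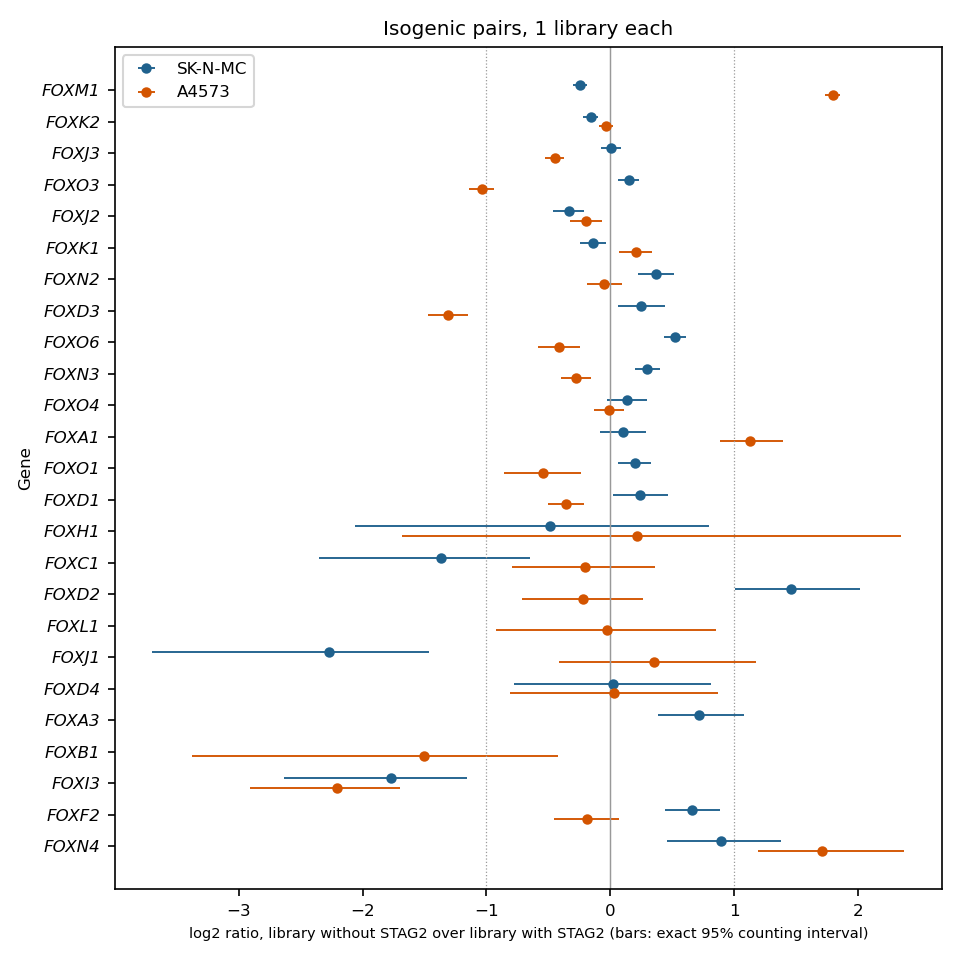
Log2 ratio of the library without STAG2 to the library with STAG2 for forkhead genes with over 3 counts in both libraries of a pair, in SK-N-MC and A4573, with exact 95% counting intervals. Dotted lines mark 2-fold. FOXI3 is past 2-fold to the low side in both lines, and FOXM1 is past it to the high side in A4573.

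Genes that regulate FOXO factors or respond to forkhead factors were followed through 4 lists. Of 13 kinases, phosphatases and other regulators of FOXO factors, 11 or 12 were tested in each comparison. Of 11 in STAG2 KO, 2 were higher, with PIK3CA at 0.53, beside 6.67% of all genes. Of 11 in SUZ12 KO, 1 was lower, PIK3R1 at -0.75, beside 5.87% of all genes. Of 12 with siSTAG2, 1 was higher, USP7 at 0.25, beside 9.54% of all genes. None was called in EZH2 KO or STAG1 KO, beside 15.7% and 5.27% of all genes. Of 14 known FOXO target genes, 5 were higher and 0 lower in each of EZH2 KO and SUZ12 KO, beside 12% and 14.7% of all genes tested that were higher. SESN3, a stress-induced sestrin, rose by 5.11 (SE 1.16, adjusted p = 0.0121) and 5.08 (SE 1.15, adjusted p = 0.00929, edgeR), from 9 to 13 counts in controls of experiment 2 to 236 to 613 and 195 to 789. In STAG2 KO 2 of the 14 were lower, beside 5.76% of all genes, and FBXO32, a muscle atrophy ubiquitin ligase, fell by 2.74 on the log2 scale (SE 0.508, adjusted p = 0.00551). In STAG1 KO 2 of 14 were higher, beside 2.77% of all genes, with CDKN1A going from 482 and 884 counts in its 2 controls to 1657 to 3491, and with siSTAG2 3 of 11 were lower, beside 11% of all genes, with FBXO32 at -2.04 (adjusted p = 0.000779, limma). FOXO4, which fell with siSTAG2, was not called in STAG2 KO (-0.40, adjusted p = 0.628, edgeR).

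Of 14 FOXM1 target genes of mitosis, all were tested in each comparison. None was called in STAG2 KO, SUZ12 KO or STAG1 KO (edgeR), beside 12.4%, 20.6% and 5.27% of all genes. In EZH2 KO, 1 was lower, beside 3.69% of all genes, CDC25B at -0.61 (SE 0.166, adjusted p = 0.0290, edgeR). With siSTAG2, 4 were lower, beside 11% of all genes, with CENPF at -0.27. FOXM1 itself was not called with siSTAG2 (0.06, adjusted p = 0.537, limma). How these targets relate to the level of FOXM1 or the FOXO genes was not tested. Of 14 Hedgehog pathway genes, which act upstream of FOXF and FOXL1 in mesenchyme, 2 were higher and 3 lower of 12 tested in EZH2 KO, and 2 higher and 4 lower in SUZ12 KO, beside 12% higher and 3.69% lower, and 14.7% higher and 5.87% lower, of all genes. SHH, the ligand, went from 0 to 2 counts in controls of experiment 2 to 52 to 419 in EZH2 KO and 445 to 889 in SUZ12 KO, and GLI2, a pathway transcription factor, fell by 1.41 and 1.63 on the log2 scale. Of 11 in STAG2 KO, 1 was lower, beside 5.76% of all genes, the coreceptor GAS1 at -1.29 (SE 0.199, adjusted p = 0.00200, edgeR). Of 9 with siSTAG2, 2 were lower, beside 11% of all genes, with GAS1 at -0.89. In STAG1 KO 2 of 10 were lower, with the coreceptor BOC at -3.84 (SE 0.743, adjusted p = 0.0454), beside 2.5% of all genes.

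Across the 5 comparisons with controls, 24 of the 41 genes were tested at least once. FOXO4 was called in 3 of these comparisons, higher in both PRC2 knockouts and lower with siSTAG2. No other forkhead gene was called in opposite directions in these 5 comparisons.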

How the data were processed

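RNA was sequenced from A673, SK-N-MC and A4573 cells with single-end, non-directional libraries primed with oligo-dT. The authors aligned reads to hg38 with TopHat2 (version 2.0.0) and the tools SAMtools (0.1.16) and Bowtie (0.12.7), and deposited gene counts for 26 libraries. The counter and annotation are not given in the sources used here. For the knockdown the authors deposited normalized values (used as a signal): counts divided by 1 factor per library, from which whole reads were recovered for 100% of values (tolerance 0.001).

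Members and gene lists were chosen with earlier results of these data known. Counts were tested with edgeR 4.0.16 (quasi-likelihood, TMM, filterByExpr) in R 4.3.3, and knockdown values with limma 3.58.1 on log2(value + 1) for genes with a mean of at least 10. Of the 41 genes, 1 is counted but not reported here. P-values were adjusted by Benjamini-Hochberg over all genes tested and called under 0.05. STAG2 KO (5 libraries) was compared with 6 controls in a fit with a term for experiment 1 or 2. EZH2 KO, SUZ12 KO and STAG2 KO of experiment 2 were fitted together. Where a group was at no more than 3 counts in each library, a fold is a lower bound against that floor. Isogenic pairs, with 1 library each, were compared as TMM-normalized log2 CPM with a prior count of 2, leaving out genes with under 10 counts in both libraries together. Values are given for every forkhead gene called, or past 2-fold in a fit, in a comparison with controls, and from each list the called gene with the largest change in each direction was named.

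The labels do not state that knockout clones or repeat libraries come from separate cultures beyond the clone itself, so p-values measure the spread between these libraries. WT clone a and b of experiment 1 differed little more than sampling noise (mean chi-square 1.31 per gene, against 8.82 for the WT clone pair of experiment 2) and were kept as 2 libraries, with their sum tried as an alternative. Other alternatives were DESeq2 1.42.0 (its test and its size factors), no filter on low counts, other control sets, single experiments, other pseudocounts and value minimums, edgeR on the recovered reads, a replicate block, and leaving out each library. Tested on simulated data with 200 genes changed by a log2 fold of 2, the fits recovered 96% (STAG2 KO), 95% (EZH2 KO), 91.5% (SUZ12 KO), 98% (STAG1 KO) and 100% (siSTAG2). Unchanged genes called in error numbered 7, 12, 9, 15 and 24 in the same order. The changed genes were drawn only from genes over a minimum mean level, so recovery at or near the floor was not tested. Gene positions and exon lengths came from GENCODE 44 on GRCh38 and promoter sequences from RefSeq. Figures were drawn with matplotlib 3.10.9 in Python 3.11.15. Counting intervals and floors cover counting error only.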

Additional observations from a re-analysis of the deposited data

Results flagged for a closer look

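FOXN2 in the parental library of experiment 1, at 30.7 CPM, stood apart from the other 5 controls of experiments 1 and 2, which lay at 20.6 to 23.8 CPM. FOXD1 in STAG2 KO 5 of experiment 2, at 11.4 CPM, stood apart from the other 4 STAG2 KO libraries, at 0 to 1.89 CPM. These were 2 of 30 groups of forkhead values in which the highest and lowest library were examined, and chance flags about 1 in 20 groups. FOXN2 and FOXO6 were called for the STAG2 KO effect minus the STAG1 KO effect. The difference was 0.91 for FOXN2 and 2.41 for FOXO6 on the log2 scale (adjusted p = 0.0261 and 0.0362, edgeR). Each of these calls was lost when certain single libraries were left out, as described above. FOXO6 was called neither in STAG2 KO (adjusted p = 0.127) nor in STAG1 KO (adjusted p = 0.0513, edgeR). All 5 STAG2 KO libraries had more FOXN2 than each of their 6 controls. For FOXO6, 4 of 5 STAG2 KO libraries and 0 of 3 STAG1 KO libraries lay over every control of their own experiment.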

How the results depend on the processing

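Across settings other than leaving out a library, 275 values of single forkhead genes kept their side of the threshold, 15 moved past it, 4 fell short of it and 0 changed direction. With each library left out in turn, 671 kept their side, 13 moved past it and 48 fell short, again with 0 changes of direction. In STAG2 KO, 2 forkhead genes were called by DESeq2 (FOXA1 and FOXN2) and 2 in experiment 1 alone (FOXA1 and FOXO3) instead of 1. Over all genes these settings called 18.3% and 25.9% instead of 12.4%. DESeq2 called 14 in EZH2 KO instead of 10 (adding FOXA1, FOXC2, FOXD1 and FOXK2, with 3 lower instead of 1), 12 in SUZ12 KO instead of 10 (adding FOXD1 and FOXN3) and 5 in STAG1 KO instead of 4 (adding FOXO6). It also called more of all genes: 21.9% instead of 15.7% in EZH2 KO, 26.3% instead of 20.6% in SUZ12 KO and 13.3% instead of 5.27% in STAG1 KO. With siSTAG2, the count was 0 with no value minimum (FOXO4 adjusted p = 0.0506, limma, over more genes tested) and 2 with edgeR on the recovered reads (FOXO1 and FOXO4). Replicate numbers of siC and siSTAG2 did not pair the libraries (correlations of deviations 0.0257, 0.0372 and 0.00402 for equal numbers), and siC 3 correlated best with another number. With the replicate block, 2 genes were called (FOXK2 and FOXO4). Over all genes with siSTAG2, 11% were called with no value minimum, 20.5% with edgeR and 23.9% with the block, instead of 20.5%. Leaving out single libraries gave 1 to 3 called genes in STAG2 KO (3 without STAG2 KO 24), 6 to 13 in EZH2 KO (6 without WT clone 1), 9 to 13 in SUZ12 KO, 0 to 0 in EZH2 KO against SUZ12 KO, 12 to 15 in PRC2 KO against STAG2 KO, 0 to 4 in STAG1 KO, 0 to 2 for the difference of STAG2 KO and STAG1 KO effects, and 0 to 2 with siSTAG2. In the isogenic pairs, 4 and 6 genes were past 2-fold with at least 50 counts in the pair, against 6 and 7. Over all genes, calls in STAG2 KO were 3663 in experiment 1 alone and 494 in experiment 2 alone against 1687, in STAG1 KO 1914 by DESeq2 against 757, in the STAG2 KO minus STAG1 KO effect 1546 by DESeq2 against 898, in EZH2 KO 1441 with the WT clone as the only control against 2377, and in EZH2 KO against SUZ12 KO 20 by DESeq2 and 5 with no filter against 1. With single libraries left out, the share of all genes called ran from 7.52% to 25.1% in EZH2 KO (without WT clone 1 and without STAG2 KO 5) and from 12.1% to 31.1% in SUZ12 KO (the same libraries). The cause of these changes was not tested. The STAG1 KO comparison rests on 2 controls, FOXO4 on 12 to 39 reads per knockdown library, and FOXE1, FOXL1 and FOXD2 on at most 65 counts per A673 library.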
